A study of Homo sapiens with 12 samples.

Results

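Oncofetal genes are active in the fetal liver, and many are silent or nearly so in the adult liver and switched on again in part of liver cancers. Of these genes 8 are described here at the chromatin level, in the hepatocellular carcinoma line Huh7 with and without added VPS72. TERT is the catalytic subunit of telomerase, LIN28B blocks maturation of the let-7 microRNAs, and IGF2BP1 and IGF2BP3 are RNA-binding proteins of the fetal growth programme. SALL4 is a zinc finger transcription factor of stem and fetal liver cells, and PEG10 is an imprinted gene derived from a retrotransposon that is expressed from the paternal copy. H19, a long noncoding RNA expressed from the maternal copy, and IGF2, a fetal growth factor expressed from the paternal copy in most tissues, are neighbours under shared imprinting control. VPS72 (YL1) belongs to the chromatin remodelling complexes SRCAP and TIP60, in which it holds the histone variant H2A.Z. That variant and its acetylated form (H2A.Zac) mark active and poised start sites, H3K27ac marks active promoters and enhancers, and H3K4me1 marks enhancers and the flanks of promoters.

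All cells were Huh7 whose own VPS72 gene carried a FLAG tag after its last codon, grown from colonies selected with blasticidin, and the labels do not say whether 1 clone was used. VPS72 overexpression cells had received lenti-VPS72-FLAG virus for 24 h, and control cells the empty lenti-HA virus. FLAG therefore reads endogenous and lentiviral VPS72 in the overexpression cells, and endogenous VPS72 in the control cells. Each condition had 1 input and 1 ChIP-seq library per antibody, against FLAG and against the 4 histone marks. An untagged FLAG library was not analysed here, so a FLAG peak need not be a site of VPS72.

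The members are the deposited peaks of the 10 ChIP libraries that overlap one of 7 places in hg19. Of the places, 6 reach 10 kb to either side of the start sites of TERT, LIN28B, SALL4, PEG10, IGF2BP1 and IGF2BP3, and the last is the window of chromosome 11 from 2.00 to 2.19 Mb that holds H19 and IGF2. They numbered 412 of 1552170 deposited peaks on the autosomes and chromosome X, 213 with overexpression and 199 in the control. Of these members, 207 had a q (the peak caller's adjusted p) of 0.05 or less. A region below is a member with such a q unless it is called a deposited peak, for which a p of 0.05 sufficed. No gene annotation of hg19 was used, so exons and introns are not given, and the window is described by position, not by gene. In the RefSeq table of GRCh38.p14 the order along chromosome 11 is H19, IGF2, INS, TH.

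Depth came to 3.07 M reads with overexpression and 4.38 M in the control for FLAG, and to between 17.9 and 25.02 M for the 8 histone libraries. These depths were recovered from the peak values at an assumed genome size of 2.7 Gb. Reads are those at a summit, with exact Poisson 95% intervals that cover counting error only, and height is those reads over the genome average of the same library. Each group was a single library, so differences lack a replicate check and carry no test. No input peak lay at any of the 7 places in either condition.

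At the 6 start sites the 2 acetylated marks were the most widespread. H3K27ac regions were found at 5 of the 6 places with overexpression and at 5 in the control, where 12.3% and 13.5% of 140888 genome tiles of 20 kb held such a summit. H2A.Zac was found at 5 with overexpression and at 5 in the control, against 15.1% and 20.4% of tiles. The place without H3K27ac was TERT and the place without H2A.Zac was LIN28B, in both conditions. H2A.Z had a region at 3 places with overexpression and at 3 in the control, against 8.19% and 14.7% of tiles. FLAG had a region at 3 places with overexpression and 3 in the control (TERT, SALL4 and IGF2BP3), against 21.3% and 25.9% of tiles. H3K4me1 was found at 4 places with overexpression and at 1 in the control, and its tiles numbered 28.8% and 9.51%. Genome tiles, here and below, are those that hold the summit of a deposited peak in any ChIP library. The tiles are not gene starts, so they give the density of each list and not that of other promoters.

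For H3K27ac the order of the 7 places by height was identical in both conditions, with the H19/IGF2 window first at 39.2 with overexpression and 45.4 in the control, followed by IGF2BP3, IGF2BP1, SALL4, PEG10, LIN28B and TERT, which came last at 3.26 with overexpression and 4.81 in the control. All 6 neighbouring pairs in that order had overlapping counting intervals in each condition, so single steps are not resolved. For every antibody the highest summit of the window was taken over 190 kb, and that of each other place over 20 kb. The part of this length in the rank of the window was not tested. For H2A.Zac SALL4 stood first at 35.8 with overexpression and 45.4 in the control, and its interval did not overlap that of IGF2BP1, the next place, in either condition. H2A.Z was highest at SALL4 and H3K4me1 in the H19/IGF2 window, in both conditions, without a gap between the intervals of neighbouring places. FLAG was highest at SALL4 with overexpression and at TERT in the control. All 6 neighbouring FLAG pairs had overlapping intervals in each condition, so the leading place is not resolved.

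**Figure D1:**
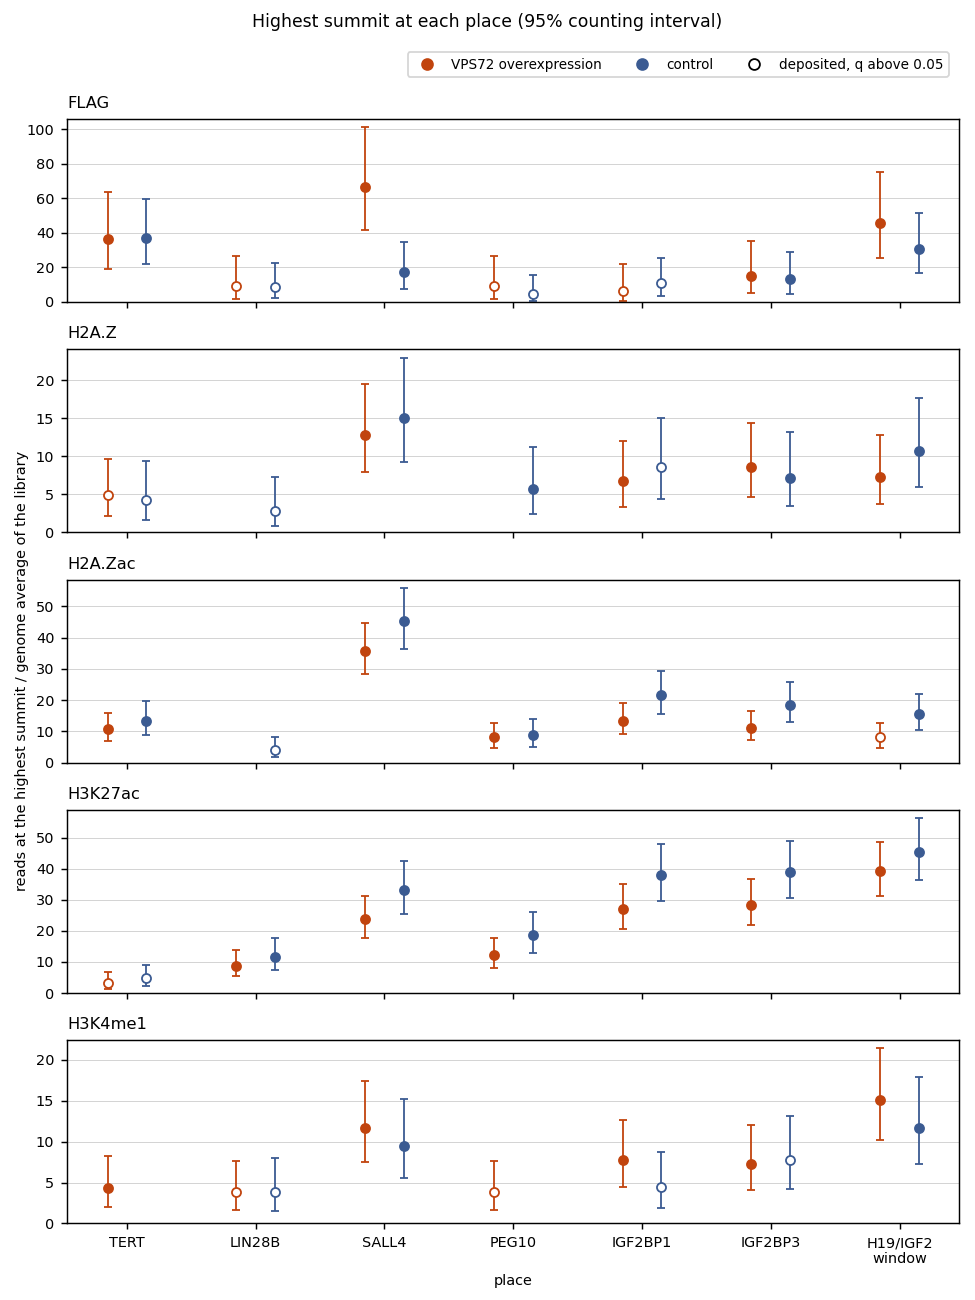
Height of the highest deposited peak at each place, as summit reads over the library's genome average, in a panel per antibody, with VPS72 overexpression left of control. The H19/IGF2 window spans 190 kb and each other place 20 kb. Bars are exact Poisson 95% intervals of the reads, open points have a q above 0.05 and a missing point means no deposited peak. SALL4 leads H2A.Zac at 35.8 with overexpression and 45.4 in the control, and the FLAG point of SALL4 is at 66.8 with overexpression and 17.5 in the control.

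**Figure D2:**
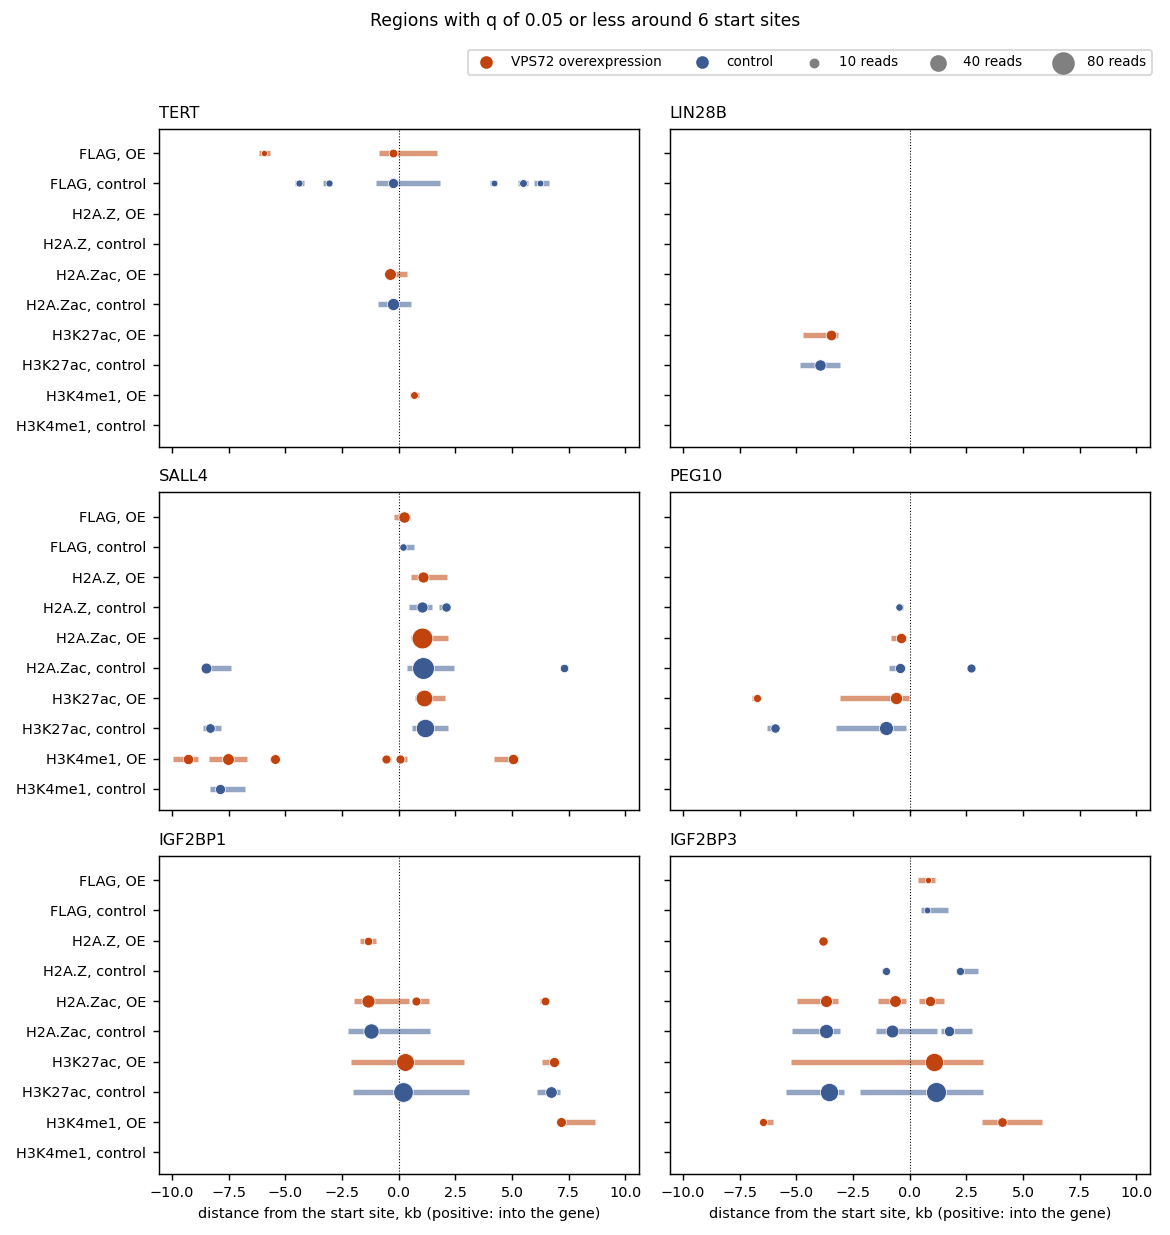
Regions past the q limit of 0.05 around the 6 start sites, against distance in kb from the start, positive into the gene, with a row per library and VPS72 overexpression (OE) above control. Bars are regions, and dots are summits sized by reads. The highest acetylated summits of SALL4 lie inside the gene and those of PEG10 upstream of the start. The H3K4me1 row at SALL4 holds 6 regions with overexpression and 1 in the control, out of 6 and 5 deposited peaks.

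TERT (chromosome 5, start 1295162, minus strand) carried FLAG and H2A.Zac at its start in both conditions, with little H3K27ac. The FLAG summit lay 270 bp upstream of the start with overexpression, with 12 reads (6.20 to 20.96) and a height of 36.4. In the control it lay 246 bp upstream, with 17 reads (9.90 to 27.2) and a height of 37.3. The 2 heights were nearly equal and the intervals of the reads overlapped. The H2A.Zac summit had 24 reads (15.4 to 35.7) at 382 bp upstream with overexpression and 26 reads (17.0 to 38.1) at 254 bp upstream in the control, which gave heights of 10.7 with overexpression and 13.4 in the control. Between the FLAG and H2A.Zac summits there were 112 bp for overexpression and 8 bp for the control. H3K27ac had a deposited peak of 7 reads at 264 bp upstream with overexpression and of 9 reads at 320 bp upstream in the control, both with a q above 0.05. H2A.Z reached 8 reads with overexpression and 6 in the control, also without passing that q. H3K4me1 had 1 region with overexpression, of 9 reads at 672 bp into the gene, and no deposited peak in the control.

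The FLAG regions in the 20 kb of TERT numbered 2 with overexpression and 6 in the control, counting the one at the start. At least as many were found in 6.11% of genome tiles with overexpression and in 1.3% in the control. Their reads were few, 5 at the other region with overexpression and 6 to 9 at the other 5 in the control. Just outside the 10 kb, up to 25 kb away, 3 more FLAG regions with overexpression and 9 in the control were found, and no histone region of any of the 4 antibodies.

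The start region of TERT is shown because FLAG and H2A.Zac had their summits in its immediate surroundings. It is the RefSeq window on GRCh38.p14 (chr5:1295019-1295318, minus strand, 250 bases before to 50 after the annotated start), and not a conversion of the hg19 peak. Capitals mark GGGCGG on either strand (written CCGCCC on the other), the GC box, and CACGTG, an E-box that reads the same on both strands.
TERT promoter: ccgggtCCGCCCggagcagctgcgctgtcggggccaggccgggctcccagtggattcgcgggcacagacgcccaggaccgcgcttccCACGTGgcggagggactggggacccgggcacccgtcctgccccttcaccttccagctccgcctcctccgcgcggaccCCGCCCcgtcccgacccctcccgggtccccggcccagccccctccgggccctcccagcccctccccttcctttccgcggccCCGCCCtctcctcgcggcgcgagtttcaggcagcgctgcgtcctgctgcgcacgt
It holds 3 GC boxes and 1 E-box. Over 35116 RefSeq promoter windows of the same length, 44.95% held a GC box on either strand and 7.26% the E-box. The TATA box, spelled TATAAA, was held by 11.5% of them and is not in this window. Its 36 CpG dinucleotides were reached by 12.7% of the windows, whose median was 14. Motifs found in the promoters printed here did not overlap each other. Of the 8 genes, 4 had a promoter in the table, namely TERT, LIN28B, IGF2BP3 and H19.

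LIN28B (chromosome 6, start 105404923, plus strand) was the emptiest of the 6 places, with H3K27ac as its only mark past the q limit. The H3K27ac summit had 19 reads (11.4 to 29.7) at 3485 bp upstream with overexpression and 22 reads (13.8 to 33.3) at 3961 bp upstream in the control. The heights were 8.86 with overexpression and 11.8 in the control, and the region was 1.55 kb wide with overexpression and 1.76 kb wide in the control. FLAG had 6 deposited peaks with overexpression, of at most 3 reads, and 1 in the control, of 4 reads. H2A.Z and H2A.Zac had no deposited peak with overexpression, and at most 4 and 8 reads in the control. H3K4me1 had 8 reads with overexpression and 7 in the control, with a q above 0.05 in both.

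The larger signal near LIN28B lay outside the 10 kb, further upstream. H3K27ac had 32 reads at 19900 bp upstream with overexpression and 39 reads at 19567 bp upstream in the control, heights of 14.9 with overexpression and 20.8 in the control. H2A.Zac had 24 reads there with overexpression and 34 in the control, and H2A.Z had 11 with overexpression and 12 in the control. A FLAG region of 8 reads in each condition lay at 15755 bp upstream with overexpression and at 16523 bp upstream in the control. These values lie just beyond the limit of the place, and no count above includes them.

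RefSeq lists a pair of LIN28B promoters 16142 bp apart, which are shown for the distance between them and for their base composition (GRCh38.p14, plus strand, chr6:104940715-104941014 and chr6:104956857-104957156). Which of them the start used here corresponds to was not resolved, because no position was converted between genome builds. The RefSeq gene start lies 3939 bp before the start of the upstream promoter and 20081 bp before that of the downstream one. Capitals mark GC boxes, CCAAT on either strand (written ATTGG on the other) and the E-box.
LIN28B promoter 1: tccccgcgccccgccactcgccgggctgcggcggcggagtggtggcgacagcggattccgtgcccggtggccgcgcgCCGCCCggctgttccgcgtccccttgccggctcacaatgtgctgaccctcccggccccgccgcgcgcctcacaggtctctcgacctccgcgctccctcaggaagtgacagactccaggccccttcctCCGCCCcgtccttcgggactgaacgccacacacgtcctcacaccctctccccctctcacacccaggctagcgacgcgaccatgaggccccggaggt
LIN28B promoter 2: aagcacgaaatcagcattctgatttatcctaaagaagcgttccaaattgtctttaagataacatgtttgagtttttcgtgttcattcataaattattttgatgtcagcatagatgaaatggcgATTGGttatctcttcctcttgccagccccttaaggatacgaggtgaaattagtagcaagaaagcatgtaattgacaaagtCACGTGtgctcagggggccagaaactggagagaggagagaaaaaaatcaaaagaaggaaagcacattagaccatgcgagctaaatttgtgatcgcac
The upstream promoter has 37 CpG, a G and C content of 73.0% and 2 GC boxes, and the downstream one 8 CpG, a content of 39.0%, no GC box, 1 CCAAT box and 1 E-box. CCAAT was held by 34.6% of all windows.

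IGF2BP1 (chromosome 17, start 47074774, plus strand) had a wide H3K27ac region over its start in both conditions. Its summit had 58 reads (44.04 to 75.0) at 277 bp into the gene with overexpression and 71 reads (55.5 to 89.6) at 185 bp into the gene in the control. The heights were 27.05 with overexpression and 37.9 in the control, and the region spanned 5.02 kb with overexpression and 5.13 kb in the control. The height ratio, overexpression over control, was 0.713 (0.495 to 1.023, exact interval of the 2 read numbers), and 59.3% of the H3K27ac regions with a peak in both libraries, past the q limit in either, had a ratio at least as high. H2A.Zac peaked further upstream, with 30 reads at 1357 bp upstream with overexpression and 42 reads at 1240 bp upstream in the control. H2A.Z had 11 reads at 1367 bp upstream with overexpression, past the q limit, and 12 reads at 1727 bp upstream in the control, not past it.

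A second H3K27ac region of IGF2BP1 lay inside the gene, with 17 reads at 6870 bp downstream of the start with overexpression and 23 reads at 6710 bp downstream in the control. H2A.Zac near it had 12 reads with overexpression, past the q limit, and 7 in the control, not past it. The height ratio was 1.49, with a wide interval that includes 1 (0.541 to 4.46). This region was admitted only through the overexpression list, where it was higher, so its rank among shared regions is not given. H3K4me1 had a region of 16 reads 7172 bp into the gene with overexpression, and deposited peaks of at most 8 reads in the control, none past the q limit. FLAG had no region, with deposited peaks of at most 2 reads with overexpression and 5 in the control.

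IGF2BP3 (chromosome 7, start 23509995, minus strand) had the longest stretch of H3K27ac of the 6 places. With overexpression 1 region of 8.47 kb covered the start, with 61 reads (46.7 to 78.4) at its summit, 1061 bp into the gene. In the control the same stretch was called as 2 regions of 5.44 and 2.57 kb, with 73 reads (57.2 to 91.8) at 1157 bp into the gene and 61 reads at 3571 bp upstream. The heights of the main summit were 28.4 with overexpression and 39.0 in the control, a ratio of 0.729. H2A.Zac had 3 regions in each condition. The highest had 25 reads (16.2 to 36.9) at 3712 bp upstream with overexpression and 36 reads (25.2 to 49.8) at 3716 bp upstream in the control, and the next had 24 reads at 661 bp upstream with overexpression and 29 reads at 770 bp upstream in the control. H2A.Z ran against H2A.Zac at the upstream summit. With overexpression it had 14 reads (7.65 to 23.5), past the q limit. In the control it had 8 reads (3.45 to 15.8), not past it. Those intervals overlapped. That was the only H2A.Z region with overexpression, whereas the control had 2, of 10 reads each, and these went the other way. At the one 2202 bp into the gene, no deposited peak with overexpression overlapped. At the one 1059 bp upstream, overexpression had 9 reads, not past the q limit. FLAG had a weak region inside the gene in both conditions, of 5 reads at 822 bp with overexpression and 6 reads at 745 bp in the control. H3K4me1 had 2 regions with overexpression and none in the control, although the highest peak had 15 reads with overexpression and 14 in the control.

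The promoter of IGF2BP3 is shown because its H3K27ac region spans the start in both conditions (RefSeq, GRCh38.p14, chr7:23470442-23470741, minus strand). Capitals mark the E-box CACGTG.
IGF2BP3 promoter: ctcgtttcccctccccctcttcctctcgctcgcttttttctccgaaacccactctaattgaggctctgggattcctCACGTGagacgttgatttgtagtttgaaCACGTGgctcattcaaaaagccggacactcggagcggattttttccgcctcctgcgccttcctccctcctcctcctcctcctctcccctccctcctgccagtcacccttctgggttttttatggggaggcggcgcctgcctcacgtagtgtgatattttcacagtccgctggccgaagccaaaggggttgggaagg
It holds 2 E-boxes, 17 CpG and none of the other motifs searched. These included, on both strands, the AP-1 site with the letters TGACTCA, which 4.95% of all promoter windows held and no promoter printed here did. The cyclic AMP response element, TGACGTCA in full, was held by 1.85% of all windows and likewise by none of these.

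SALL4 (chromosome 20, start 50419014, minus strand) had the highest H2A.Zac of the 7 places, about 1 kb into the gene. The H2A.Zac summit had 80 reads (63.4 to 99.6) at 1045 bp with overexpression and 88 reads (70.6 to 108) at 1067 bp in the control, which placed it within the top 0.487% of the overexpression regions and the top 0.636% of the control regions by height. H3K27ac had 51 reads (38.0 to 67.1) at 1106 bp with overexpression and 62 reads (47.5 to 79.5) at 1154 bp in the control. H2A.Z had 21 reads (13.0 to 32.1) in each condition, at 1051 bp for overexpression and 1009 bp for the control. The summits of these 3 antibodies lay within 61 bp of each other with overexpression and within 145 bp in the control. The height ratio was 0.790 for H2A.Zac, 0.718 for H3K27ac and 0.852 for H2A.Z, and the counting interval of each held 1.

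Among the member regions with a peak in both conditions, FLAG at SALL4 had the height ratio farthest from 1. It had 22 reads (13.8 to 33.3) at 240 bp into the gene with overexpression and 8 reads (3.45 to 15.8) at 195 bp into the gene in the control. The heights were 66.8 with overexpression and 17.5 in the control, a ratio of 3.81 (1.63 to 9.89), and the read intervals overlapped between 13.8 and 15.8. Of the 51085 FLAG regions with a peak in both lists, past the q limit in either, 0.247% had a ratio at least as high. The region was picked out after its value was seen, from 1 library per condition. The local background of the peak caller behind this FLAG summit was 4.03 times the genome average with overexpression and 4.16 in the control. The deposited fold, which is taken over that background, was 9.88 with overexpression and 3.11 in the control. The part of the background in the FLAG heights was not tested. The FLAG summit lay 811 bp from that of H2A.Z for overexpression and 814 bp for the control, closer to the start than the histone summits.

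Upstream of SALL4 a weaker cluster lay 7.5 to 8.5 kb from the start. H3K4me1 had 24 reads at 7534 bp with overexpression and 17 reads at 7884 bp in the control. H3K27ac had 11 reads with overexpression, not past the q limit, and 15 in the control, past it. H2A.Zac had no deposited peak with overexpression and 20 reads at 8516 bp in the control. H3K4me1 regions over the 20 kb numbered 6 with overexpression and 1 in the control, and at least as many were held by 1.19% of tiles with overexpression and 9.51% in the control. Deposited H3K4me1 peaks there numbered 6 with overexpression and 5 in the control. Where both lists had a peak, the height ratios were 0.756, 0.982 and 1.23, each with a counting interval that held 1. The whole H3K4me1 lists held 85651 regions with overexpression and 20108 in the control. The local background of the peak caller behind the histone peaks of SALL4 was high in both conditions, with a median of 2.001 times the genome average with overexpression and 2.006 in the control, against 1.10 with overexpression and 1.19 in the control over all histone peaks. Its part in the heights was not tested.

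PEG10 (chromosome 7, start 94285637, plus strand) had its highest acetylation upstream of the start. The H3K27ac region was 3.02 kb wide with overexpression and 3.11 kb wide in the control and ended before the start in both. Its summit had 26 reads (17.0 to 38.1) at 599 bp upstream with overexpression and 35 reads (24.4 to 48.7) at 1065 bp upstream in the control. H2A.Zac had 18 reads at 371 bp upstream with overexpression and 17 reads at 447 bp upstream in the control, heights of 8.06 with overexpression and 8.76 in the control. A further H2A.Zac region of 13 reads at 2704 bp downstream in the control had no counterpart with overexpression. H2A.Z had no deposited peak with overexpression and 8 reads at 468 bp upstream in the control. Smaller H3K27ac peaks lay further upstream. The one at 6738 bp had 10 reads with overexpression, past the q limit, and 6 in the control, not past it. The one at 5953 bp had 9 reads with overexpression, not past the q limit, and 14 in the control, past it. Neither FLAG nor H3K4me1 had a region, and H3K4me1 had no deposited peak in the control.

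The H19/IGF2 window carried 141 of the 207 regions over its 190 kb. FLAG made up most of them, with 29 regions with overexpression and 49 in the control. Their widths summed to 27.6 kb with overexpression and 61.99 kb in the control, which equals 14.5% and 32.6% of the window's length. The last control region (2189632 to 2192310) runs past the end of the window, so the share covered in the control is somewhat smaller. The median was 7 reads (4 to 15) with overexpression and 8 reads (5 to 14) in the control. Of 15036 genome tiles of 190 kb, 0.904% held at least as many FLAG summits with overexpression and 0.752% in the control, and the median tile held 2 in both. The control library was the deeper, and a limit on q follows depth, so the difference in number and in covered length cannot be told apart from depth. After joining overlapping regions, 23 were past the limit in both conditions, out of 26 with overexpression and 43 in the control. The FLAG regions left a gap of 53.3 kb without any with overexpression (2053723 to 2107054) and of 45.4 kb in the control (2061433 to 2106875).

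**Figure D3:**
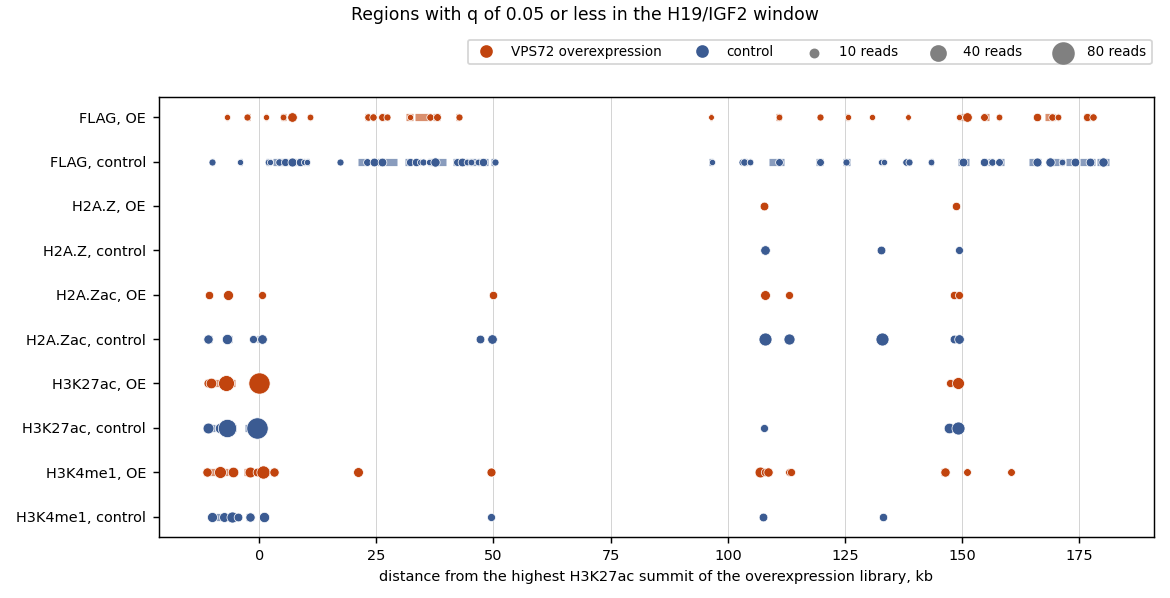
Regions past the q limit of 0.05 in the H19/IGF2 window, against distance in kb from the summit of the highest H3K27ac region of the overexpression library, with a row per library and VPS72 overexpression (OE) above control. Bars are regions, and dots are summits sized by reads. FLAG rows are dense on either side of an empty stretch of 53.3 kb with overexpression and 45.4 kb in the control, and H3K27ac is concentrated at the left end, with 84 reads with overexpression and 85 in the control.

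The histone regions of the window fell into 7 groups when those within 5 kb were joined. The left end (1999162 to 2014832) held the strongest H3K27ac of all members, with 84 reads (67.0 to 104) with overexpression and 85 reads (67.9 to 105) in the control, heights of 39.2 with overexpression and 45.4 in the control. It stood within the top 0.893% of H3K27ac regions with overexpression and the top 1.44% in the control. A second H3K27ac region beside it had 46 reads with overexpression and 62 in the control, a height ratio of 0.647 (0.432 to 0.964). H3K4me1 was also highest there, with 31 reads (21.1 to 44.0) with overexpression and 21 reads (13.0 to 32.1) in the control, in 7 regions with overexpression and 6 in the control. H2A.Zac had 17 reads with overexpression and 18 in the control, and H2A.Z had no region in either. The main summit of SALL4, in comparison, had H2A.Z and H3K27ac regions in both conditions.

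The other groups along chromosome 11 had lower H3K27ac, and 2 of them held the member regions with the lowest H2A.Zac ratios. At 2117256 to 2124677 H2A.Zac had 16 reads (9.15 to 26.0) with overexpression and 30 reads (20.2 to 42.8) in the control, a height ratio of 0.463 (0.236 to 0.877). At 2143341 to 2144519 it had 18 reads with overexpression, not past the q limit, and 30 in the control, a ratio of 0.521 (0.274 to 0.966). The deposited fold there, taken over the local background, was 2.22 with overexpression and 10.1 in the control. A further H2A.Zac region at 2123809 to 2124423 had 10 reads with overexpression and 21 in the control, a ratio of 0.414 (0.174 to 0.918). These 3 intervals lie below 1 and hold 0.652, the median ratio over all shared H2A.Zac regions. H2A.Z at 2117256 to 2124677 had 12 reads with overexpression and 15 in the control. At 2143341 to 2144519 it had no deposited peak with overexpression and 12 reads in the control. At 2156428 to 2161982 H3K27ac had 25 reads with overexpression and 30 in the control, and FLAG had 15 reads with overexpression and 12 in the control. At 2171154 to 2171608 the only region was H3K4me1 with overexpression, with 9 reads, and no deposited H3K4me1 peak lay there in the control. At 2031815 to 2032367 H3K4me1 had a region of 16 reads with overexpression, and the control had a deposited peak of 6 reads, not past the q limit, that ended just before it, at 2031395 to 2031805. FLAG had a deposited peak of 2 reads there with overexpression, not past the q limit, and a region of 9 reads in the control.

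FLAG and the histone regions mostly lay apart in the window. With overexpression 17.2% of its 29 FLAG regions overlapped a region of any of the 4 histone antibodies, against 14.5% of all FLAG regions, and in the control 14.3% of 49 did, against 13.4%. These shares are close to those of the whole lists. Of the FLAG regions of the window, 0 of 29 overlapped an H2A.Z region with overexpression, against 5.43% of all FLAG regions, and 3 of 49 in the control, against 8.31%.

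The acetylated marks had lower summits with overexpression at the members, as at the shared regions of the genome. Taking regions past the q limit in the control that overlapped any overexpression peak, the H2A.Zac height ratio was below 1 at 17 of 17 member regions, with a median of 0.637 and a range of 0.414 to 0.920, against a median of 0.652 over 29337 shared regions. It was lower by at least 1.5-fold at 9 of the 17, against 53.7% of all, and higher by as much at 0, against 0.0375%. For H3K27ac it was below 1 at 13 of 13, with a median of 0.713, against 0.738 over 21915, and lower by at least 1.5-fold at 6, against 31.8%, and higher at 0, against 0.155%. The H2A.Z ratio was below 1 at 4 of 4, with a median of 0.766 against 0.852, and 0 were lower by 1.5-fold, against 17.4%, or higher, against 1.45%. FLAG was below 1 at 21 of 38, with a median of 0.950 against 0.865, and 5 were lower by at least 1.5-fold (23.0% of all) and 4 higher (7.99% of all). H3K4me1 was above 1 at 6 of 8, with a median of 1.24 against 1.05, and 1 was higher by at least 1.5-fold (7.6% of all) and 0 lower (5.53% of all). The overexpression list was then used to choose the regions instead. A ratio above 1 was found at 2 of 5 H2A.Z members, 1 of 15 H2A.Zac members and 1 of 12 H3K27ac members. For FLAG it was found at 16 of 27 members and for H3K4me1 at 8 of 13. Medians over all shared regions were then 1.01 for H2A.Z, 1.15 for FLAG, 0.668 for H2A.Zac, 0.776 for H3K27ac and 1.21 for H3K4me1. The side of 1 of the H2A.Z and FLAG medians over all regions therefore follows the list that selects. The highest of these H2A.Z ratios was 1.87 (0.6 to 6.88), in the window at 2159315 to 2159774, with 11 reads with overexpression and 5 in the control. With so few member regions, nothing about the members as a set is read from these shares. A lower level of a mark cannot be told apart from weaker enrichment of its library.

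**Figure D4:**
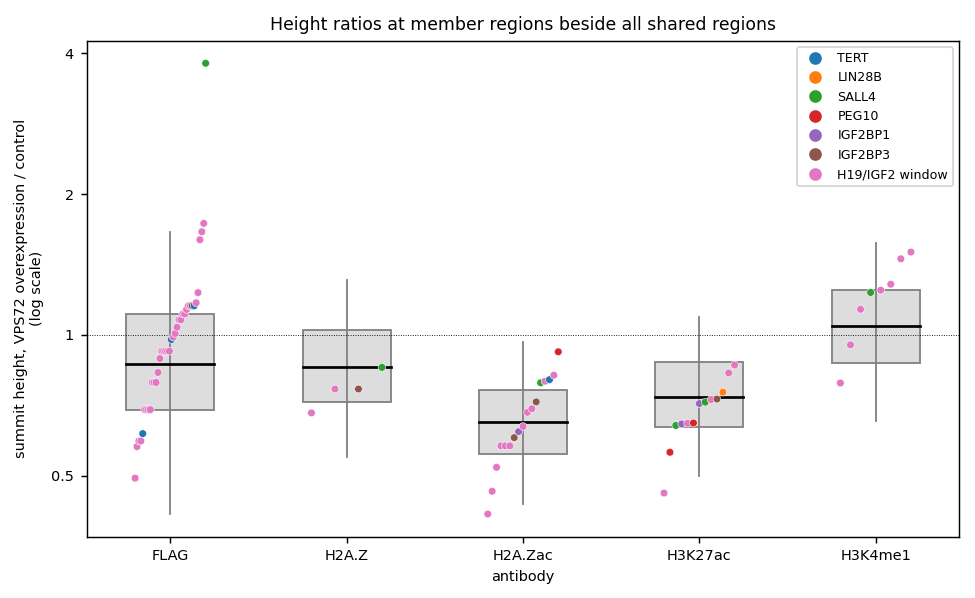
Ratio of summit heights, VPS72 overexpression over control, on a log scale, for each antibody. Points are member regions coloured by place, boxes and lines are the quartiles and median over all shared regions chosen in the control list, and whiskers run from the 5th to the 95th percentile. The 17 H2A.Zac and 13 H3K27ac points lie below 1, and the FLAG point of SALL4 stands above the others at 3.81.

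Some regions had no deposited peak in the other condition. Of the H3K4me1 member regions with overexpression, 13 of 26 had no deposited peak in the control, against 45.8% of all such regions, and 0 of 8 in the control had none with overexpression, against 11.4%. FLAG had 3 of 30 with overexpression without a control peak, against 27.2%, and 13 of 51 (25.5%) in the control without an overexpression peak, against 32.3%. H2A.Z had 0 of 5 with overexpression, against 10.9%, and 3 of 7 in the control, against 40.2%. For H2A.Zac and H3K27ac, 0 of 15 and 0 of 12 with overexpression lacked a control peak, against 7.21% and 10.3%, and the control had 3 of 20 and 1 of 14 without a peak with overexpression, against 26.2% and 16.3%.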

How the data were processed

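Peak lists of 12 libraries were used, and all counts are of peaks on the autosomes and chromosome X. Reads were handled with FastQC, Trimmomatic and BWA and peaks called with MACS2, per the submitters' processing notes, which give no versions and name both hg19 and hg38; all peaks lay within hg19, whose coordinates are printed 1-based. The peak lists were deposited with a fold (a ratio of summit to local background, both plus 1), −log10 p and −log10 q values and the authors' integer score, which was not used further; the deposited summit offset gave positions. The lists reach down to a p of 0.05. Groups follow the sample titles; the genotype field of the 5 overexpression ChIP libraries holds other VPS names, and peak names of the control H3K4me1 list spell the mark differently.

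Under the Poisson model of MACS2, the deposited fold and −log10 p together give the whole number of reads at a summit (tolerance 0.002). It was found for at least 99.999% of peaks in each ChIP library. On simulated data 100% were recovered. Those data held no peak of 1 read and no background as low as that of overexpression FLAG, so they do not cover such peaks. Depth assumes fragments as long as the shortest peak. In the overexpression FLAG list 297013 of 551907 deposited peaks had 1 read, so counts use q where stated. Peaks of both conditions were joined where they shared 1 bp. Strands of SALL4, PEG10 and IGF2BP1 are general knowledge; the others are from RefSeq. Named were all 8 genes, with the strongest and nearest regions per library. The genes, places and lists were chosen with earlier results of these data known. Alternatives were the q limit, place size, summit position, a minimum of 10 reads, deposited fold and the selecting list. Scripts ran in Python 3.11.15 with scipy 1.17.1, pandas 2.3.3, numpy 2.4.6 and matplotlib 3.10.9.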

Additional observations from a re-analysis of the deposited data

How the results depend on the processing

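With peaks of a q of 0.05 or less instead of all deposited, the member peaks with overexpression numbered 33 instead of 104 for FLAG, 5 instead of 12 for H2A.Z, 17 instead of 32 for H2A.Zac, 13 instead of 24 for H3K27ac and 27 instead of 41 for H3K4me1. In the control they numbered 57 instead of 87 for FLAG, 8 instead of 30 for H2A.Z, 16 instead of 25 for H3K27ac and 10 instead of 29 for H3K4me1. With 25 kb on either side, chosen after the data were seen, control H3K4me1 had 46. The places with a region went, with all deposited peaks, to 7 instead of 4 for FLAG with overexpression, and in the control to 7 instead of 4 for FLAG, 7 instead of 4 for H2A.Z and 5 instead of 2 for H3K4me1. At a q of 1e-05 they were 1 for H2A.Z and 2 for H3K4me1 with overexpression, and 2 for FLAG, 2 for H2A.Z and 1 for H3K4me1 in the control. Control H3K4me1 had 1 with 5 kb on either side, and control FLAG 2 with at least 10 reads. The FLAG height ratio turned from 0.950 to 1.077 when the overexpression list chose the regions and to 1.038 over all deposited regions, so its direction follows the list that selects; the other 4 ratios kept their side of 1. Of the comparisons of peak numbers, places and ratios with their alternatives, 30 of 40, 29 of 40 and 18 of 20 stayed within 1.5 times or within the counting interval. No paired analysis was possible because each condition had 1 library per antibody and no result comes from a test, and no library could be left out. Regions of 5 to 10 reads, as most FLAG regions, limit what the heights can show.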

Other observations

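Beyond the 10 kb, IGF2BP1 had a further H3K27ac region 16121 bp into the gene with overexpression, with 27 reads (17.8 to 39.3), and 16107 bp into the gene in the control, with 35 reads (24.4 to 48.7). H2A.Zac overlapped it in both conditions, with 13 reads with overexpression and 9 in the control, and so did H3K4me1, with 15 reads with overexpression and 17 in the control. Upstream of IGF2BP3, at 20181 bp for overexpression and 20182 bp for the control, FLAG had 17 reads (9.90 to 27.2) with overexpression and 9 reads (4.12 to 17.1) in the control, heights of 51.6 with overexpression and 19.7 in the control, and no histone antibody had a region between 10 and 25 kb on that side.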
